A study of Arabidopsis thaliana with 6 samples.

Results

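The cyclins and cyclin-dependent kinases of Arabidopsis thaliana were followed in whole seedlings of the toc1-21 prr5-1 double mutant and of its wild type, the accession Col-0. The genes were taken by name: a locus was included where the UniProt description in the deposited files begins with "Cyclin-", "Putative cyclin-" or "Cyclin-dependent kinase", and left out where it begins with "Cyclin-like". This gave 87 loci of 33602. They were sorted into 10 A cyclins, 15 B cyclins, 10 D cyclins, 21 other cyclins, 18 kinases, and 13 inhibitors and subunits whose descriptions also begin with the kinase name. Names are written as in those descriptions, so that CYCB1-4 and CDKD-1 stand for the genes often spelled with a semicolon.

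RNA was sequenced from seedlings of 10 days that had been raised on sucrose-containing (3%) MS medium under long days (22 °C) and were harvested at ZT15, where the number counts the 15 hours since lights-on. The mutant carries the toc1-21 and prr5-1 alleles in TOC1 and PRR5, which encode transcriptional repressors of the circadian clock, and the labels do not describe the alleles further. Each genotype had 3 libraries, called biological replicates by the submitters. No source used here says how the plants of a replicate were kept apart, and the p-values therefore speak only to the variation among the 6 libraries. The comparison asks which of these genes differ at ZT15 when both clock genes are mutated. With a single time of day, a change in level and a shift in daily timing cannot be told apart. Differences at other hours would be missed.

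Most cyclin-dependent kinases work only when a cyclin is bound to them, and the cyclin sets when and on what they act. In plants, D cyclins join the kinase CDKA-1 in response to growth cues and release the E2F transcription factors from the retinoblastoma protein RBR1. A cyclins act from DNA replication to mitosis, and B cyclins with the plant-specific CDKB kinases act in mitosis. CDKD kinases, which pair with CYCH1-1, and the kinase CDKF-1 phosphorylate other cyclin-dependent kinases. T, C and L cyclins work with CDKC, CDKE and CDKG kinases in transcription and splicing. Proteins of the KRP and SIAMESE families inhibit complexes of cyclins and kinases. In whole seedlings, a lower level of such RNAs from fewer dividing cells and from less RNA per cell cannot be told apart.

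Levels are RPKM as deposited, that is reads per kilobase of a gene relative to the read total of the library. Read totals behind the values were between 19956080 and 26792712 in the mutant libraries and between 14617043 and 22173648 in the Col-0 libraries, so 1 RPKM in a gene of 1 kb rested on 14.6 to 26.8 reads. The mutated genes were lower in every mutant library than in every Col-0 library. TOC1 had 18.6, 14.8 and 17.2 RPKM in mutant libraries, against 34.0, 32.0 and 34.9 RPKM in Col-0 libraries (log2 fold change -0.96, limma adjusted p = 0.000187). PRR5 had 1.09, 0.926 and 1.35 RPKM in mutant libraries, against 2.88, 3.01 and 2.92 RPKM in Col-0 libraries (log2 fold change -0.89, limma adjusted p = 0.00371). The alleles thus left RNA reads of both genes. Here and below, log2 fold changes are mutant over Col-0 on the log2(RPKM + 1) scale, on which changes of low genes look too small. Adjusted p-values run over all 19710 genes that reached 1 RPKM in 3 or more libraries.

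Few of these cyclin and kinase loci differed detectably between the genotypes. Of the 87 loci, 69 passed the filter on low values, and 3 of these passed an adjusted p of 0.05 in limma. The kinase gene CDKD-1 and the mitotic cyclin CYCB1-4 were lower in the mutant, and CYCU1-1, a cyclin of the U (or P) group, was higher. That is 4.35% of the tested loci, where 10.6% of all tested genes were called (3.9% higher and 6.65% lower). At an unadjusted p under 0.05 there were 10 of the 69, or 14.5%, where all tested genes gave 22.4%. The genotypes' ranges did not overlap for 13 of the 69, or 18.8%, with 5 higher and 8 lower, where 27.0% of all tested genes did not overlap (11.6% higher and 15.4% lower). The fitted change was below 0 for 47 of the 69 and above 0 for 22, with a median of -0.07. Over all 19710 tested genes it was below 0 for 10312 and above 0 for 9398, with a median of -0.01. Each class held only 7 to 14 tested loci, so a count of 0 or 1 called says little about a class.

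**Figure D1:**
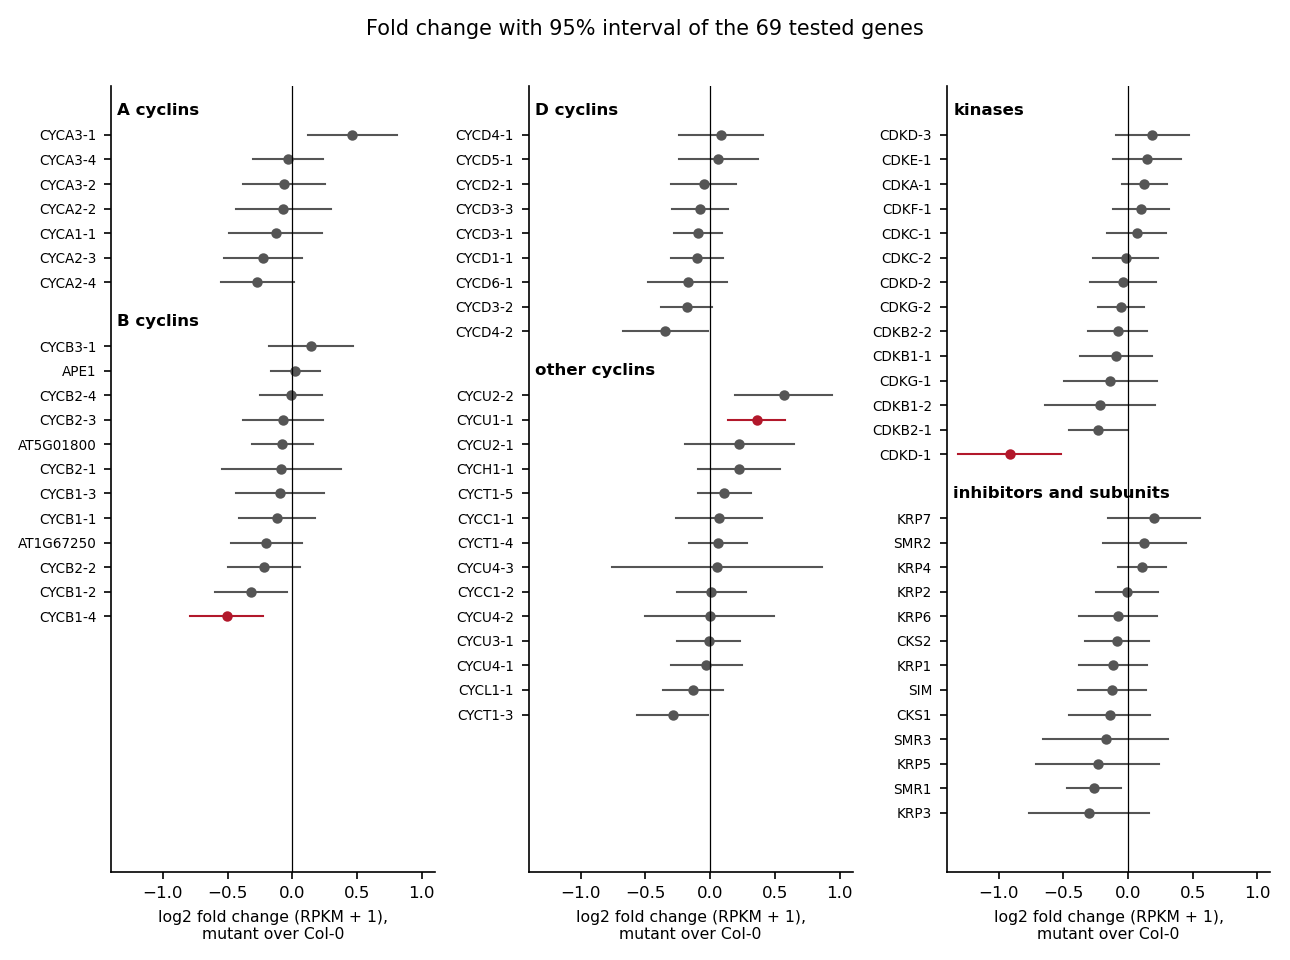
Fitted log2 fold change (mutant over Col-0, log2(RPKM + 1) scale, horizontal axis) with its 95% interval from limma for the 69 tested loci, sorted within each class. Red marks an adjusted p under 0.05. The points sit close to 0 in every class, and CDKD-1 at -0.91, CYCB1-4 at -0.51 and CYCU1-1 at 0.36 are the red ones.

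The 250 bases before the annotated start of the 3 called genes are shown because they are the stretch in which the known cell-cycle and clock motifs were looked for, and CYCB1-2, the best expressed close relative of CYCB1-4, is set beside them as an example that holds the mitotic motif (it was chosen after its values were seen). Coordinates and letters are from RefSeq's TAIR10.1 assembly, and each sequence is written 5′ to 3′ on the strand of its gene. Capitals mark AACGG or its reverse complement in CYCB1-2, and CACGTG in CYCU1-1.
CDKD-1, chr1:27714660-27714909, plus strand: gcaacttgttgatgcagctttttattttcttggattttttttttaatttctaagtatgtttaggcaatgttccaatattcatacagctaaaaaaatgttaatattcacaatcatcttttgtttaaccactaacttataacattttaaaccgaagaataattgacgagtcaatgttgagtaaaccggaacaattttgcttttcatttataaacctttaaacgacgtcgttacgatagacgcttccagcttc
CYCB1-4, chr2:11400868-11401117, plus strand: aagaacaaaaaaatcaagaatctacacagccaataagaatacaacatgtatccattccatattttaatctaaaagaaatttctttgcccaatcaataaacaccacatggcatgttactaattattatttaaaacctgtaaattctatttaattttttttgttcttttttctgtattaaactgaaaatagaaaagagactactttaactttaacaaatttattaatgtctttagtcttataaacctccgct
CYCB1-2, chr5:1861704-1861953, minus strand: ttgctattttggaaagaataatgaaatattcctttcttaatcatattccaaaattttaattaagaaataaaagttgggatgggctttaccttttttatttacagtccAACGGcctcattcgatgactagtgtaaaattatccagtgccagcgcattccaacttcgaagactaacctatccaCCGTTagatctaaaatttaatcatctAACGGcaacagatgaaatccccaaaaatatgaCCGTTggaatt
CYCU1-1, chr3:7704959-7705208, minus strand: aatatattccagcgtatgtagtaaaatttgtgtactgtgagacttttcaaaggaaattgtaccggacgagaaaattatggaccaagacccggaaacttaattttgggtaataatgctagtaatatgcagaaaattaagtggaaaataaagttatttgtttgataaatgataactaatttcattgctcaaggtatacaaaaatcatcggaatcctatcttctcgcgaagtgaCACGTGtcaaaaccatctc

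4 motifs were searched on both strands. AACGG is the core of the mitosis-specific activator element bound by MYB3R factors, TTTCCCGC, TTTGGCGC and TTTCGCGC are forms of the E2F site, CACGTG is the G-box, and AAAATATCT is the evening element of clock genes. CYCB1-2 held AACGG 4 times, starting 143, 69, 43 and 11 bases before the start, and CYCU1-1 held a G-box 19 bases before it. The stretches of CDKD-1 and CYCB1-4 held none of the 4 motifs. AACGG stood before 6 of the 11 B cyclin genes with a cyclin entry in RefSeq, or 54.5%, and before 20.6% of 27443 coding genes. Over the 84 loci with a promoter sequence, AACGG was found in 27.4%, an E2F form in 2.38% (1.13% of all coding genes), a G-box in 8.33% (6.49% of all) and the evening element in 0 (2.36% of all). A match is a description of the letters only.

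The largest change among the kinases was in CDKD-1 (AT1G73690), which belongs to the kinases that activate other cyclin-dependent kinases. CDKD-1 had 0.386, 0.804 and 0.401 RPKM in mutant libraries, against 2.02, 1.94 and 1.64 RPKM in Col-0 libraries, resting on 13, 35 and 13 reads in the mutant and 48, 51 and 59 reads in Col-0. All mutant libraries lay below all Col-0 libraries, and the mutant mean was 0.284 times that of Col-0 (0.530 ± 0.237 and 1.87 ± 0.202 RPKM, SD, n = 3 each). The log2 fold change was -0.91 (SE 0.178, limma adjusted p = 0.009). This gene passed the filter on low values only through its Col-0 libraries, so that a difference was built into its being tested, and it was also called with a filter on the mean of all libraries and with no filter. Its mean over all libraries, 1.20 RPKM, also passed that filter through the Col-0 values. CDKD-1 was called without each library in turn, at limma adjusted p-values between 0.0128 and 0.044. Those fits kept the filter on all 6 libraries, so CDKD-1 stayed tested even when a Col-0 library that carried it past the filter was left out.

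The other genes of the activating module gave no call. CDKD-2 had 6.27, 6.10 and 7.15 RPKM in mutant libraries, against 7.17, 6.38 and 6.57 RPKM in Col-0 libraries (log2 fold change -0.04, 95% interval -0.29 to 0.21, limma adjusted p = 0.899). CDKD-3 had 7.08, 6.69 and 7.45 RPKM in mutant libraries, against 6.49, 5.10 and 6.79 RPKM in Col-0 libraries (log2 fold change 0.19, 95% interval -0.10 to 0.47, limma adjusted p = 0.458). The ranges of both overlapped between genotypes, and both were expressed several times above CDKD-1. CDKF-1, which acts upstream of the CDKD kinases, and the partner cyclin CYCH1-1 had limma adjusted p-values of 0.632 and 0.415. Whether the change of CDKD-1 differs from that of its paralogs was not tested.

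The locus of CDKD-1 on chromosome 1 (27714910 to 27717420, plus strand) shares 41 exon bases with AT1G73700 on the other strand. AT1G73700 had 1.99, 1.03 and 1.02 RPKM in mutant libraries, against 0.211, 0.456 and 0.445 RPKM in Col-0 libraries (log2 fold change 0.76, limma adjusted p = 0.0495, 0.0633 to 0.198 without each library in turn). It passed the filter on low values only through its mutant libraries, so that a difference was built into its being tested, and a filter on the mean of all libraries left it out. Among the 100 tested loci around CDKD-1, 50 on each side, 22 were called, 8 higher and 14 lower. Around CYCU1-1 it was 15 of 100, and around CYCB1-4 it was 7 of 100. Of all tested genes 10.6% were called, 3.9% higher and 6.65% lower. The part of these surroundings in the 3 calls was not tested.

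**Figure D2:**
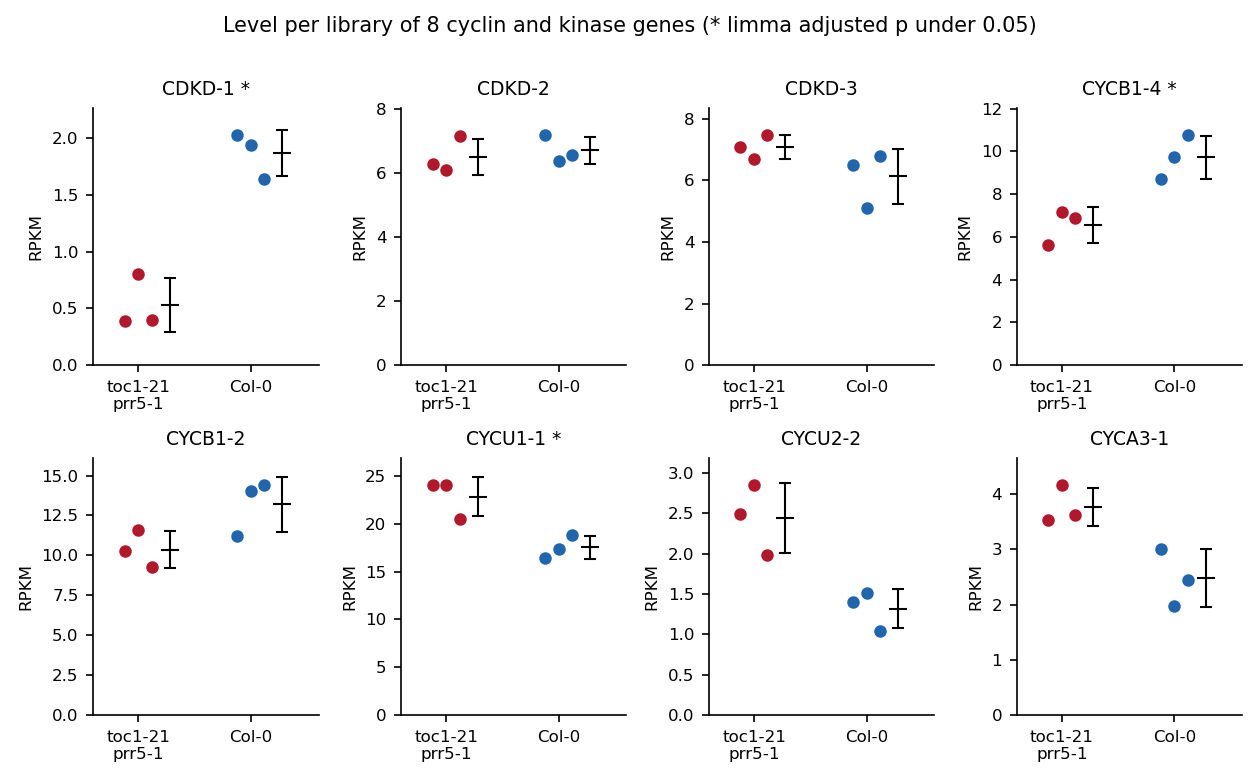
RPKM in each library (vertical axes start at 0) for 8 genes in toc1-21 prr5-1 (red) and Col-0 (blue), with the mean and SD (n = 3 each) as a black bar. CDKD-1, CYCB1-4 and CYCU1-1, marked with an asterisk, have an adjusted p under 0.05, and CDKD-2, CDKD-3 and CYCB1-2 have overlapping ranges.

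CDKA-1, the kinase that serves through the whole plant cell cycle, was the highest of the 14 tested kinase genes. It had 44.9, 46.6 and 46.4 RPKM in mutant libraries, against 40.4, 41.9 and 44.0 RPKM in Col-0 libraries. All mutant libraries lay above all Col-0 libraries, yet the change was small and did not pass (log2 fold change 0.13, 95% interval -0.05 to 0.30, limma adjusted p = 0.405). CDKC-2, which phosphorylates RNA polymerase, and CDKG-2, of a group linked to splicing, followed with mutant means of 30.6 ± 0.569 and 29.0 ± 0.489 RPKM and Col-0 means of 31.2 ± 4.85 and 30.2 ± 1.52 RPKM (SD, n = 3 each). Both overlapped between genotypes, with limma adjusted p-values of 0.956 and 0.775.

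The 4 mitotic CDKB kinases all had fitted changes below 0, from -0.23 to -0.08, and none was called, where 10.6% of all tested genes were called. CDKB2-1, whose expression peaks towards mitosis, had 13.4, 16.3 and 14.6 RPKM in mutant libraries, against 17.4, 17.99 and 17.1 RPKM in Col-0 libraries (log2 fold change -0.23, limma adjusted p = 0.198). Its ranges did not overlap. Summed over the 4 genes, the mutant had 37.7, 44.2 and 39.8 RPKM, against 46.1, 47.8 and 43.1 RPKM in Col-0. The highest mutant library lay above the lowest Col-0 library.

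The D cyclins act at entry into the cell cycle. Of the 9 tested, 0 passed in limma, where 10.6% of all tested genes were called. An unadjusted p under 0.05 was reached by 1 (22.4% of all tested genes), and limma-voom on recovered reads called 0. The median change of the D cyclins was -0.09. CYCD3-2, which keeps cells dividing in young organs, had 47.9, 48.0 and 49.0 RPKM in mutant libraries, against 54.2, 60.8 and 50.1 RPKM in Col-0 libraries (log2 fold change -0.18, limma adjusted p = 0.274). CYCD4-2, known from stomatal lineage divisions in the hypocotyl, had 1.91, 2.50 and 2.22 RPKM in mutant libraries, against 3.35, 3.20 and 2.68 RPKM in Col-0 libraries (log2 fold change -0.35, limma adjusted p = 0.195). Both were lower in all mutant libraries, as was CYCD3-1, where the gap between the nearest libraries was small (25.8 RPKM in the mutant and 25.9 RPKM in Col-0). These 3 of 9 genes are 33.3% of the class. Of all tested genes, 15.4% had ranges that did not overlap and were lower in the mutant (27.0% in either direction). CYCD1-1 had ranges that overlapped (18.6 ± 1.15 RPKM in the mutant and 20.05 ± 0.855 RPKM in Col-0, SD, n = 3 each, limma adjusted p = 0.589).

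Among the A cyclins, 0 of 7 tested genes passed in limma, where 10.6% of all tested genes were called. An unadjusted p under 0.05 was reached by 1 (22.4% of all tested genes), and limma-voom called 0. CYCA3-1, whose group is expressed around DNA replication, had 3.52, 4.16 and 3.61 RPKM in mutant libraries, against 3.01, 1.97 and 2.45 RPKM in Col-0 libraries. All mutant libraries lay above all Col-0 libraries, at a log2 fold change of 0.46 (SE 0.153) that missed the threshold (limma adjusted p = 0.093, and 0.0457 after quantile normalization). The other 6 tested A cyclins had fitted changes below 0. The 3 highest were CYCA3-2, CYCA2-3, which restrains endoreduplication, and CYCA3-4, with mutant means of 9.79 ± 1.25, 8.998 ± 1.30 and 8.93 ± 1.02 RPKM and Col-0 means of 10.3 ± 1.84, 10.7 ± 1.44 and 9.15 ± 0.990 RPKM (SD, n = 3 each). All 3 overlapped between genotypes.

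The B cyclins drive entry into mitosis. CYCB1-4 (AT2G26760) was lower in the mutant, with 5.61, 7.17 and 6.89 RPKM in mutant libraries, against 8.72, 9.71 and 10.7 RPKM in Col-0 libraries. The ranges did not overlap, and the mutant mean was 0.674 times that of Col-0 (log2 fold change -0.51, SE 0.126, limma adjusted p = 0.0297). The call was lost in most fits that left out a library. The limma adjusted p was 0.129, 0.0542 and 0.063 without mutant replicates 1, 2 and 3. Without Col-0 replicates 2 and 3 it was 0.057 and 0.0716, while it was 0.046 without Col-0 replicate 1. It was 0.0629 with no filter on low values. The fold change stayed below 0 in all 16 other fits.

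CYCB1-2 was the highest of the true B cyclins, with 10.2, 11.6 and 9.25 RPKM in mutant libraries, against 11.2, 14.0 and 14.4 RPKM in Col-0 libraries. Mutant replicate 2 lay above the lowest Col-0 library (log2 fold change -0.32, SE 0.125, limma adjusted p = 0.155), and 11.3% of its 50-base windows occur elsewhere in the genome, so its level is uncertain. CYCB1-1, the usual reporter of cells about to divide, had 3.45, 4.58 and 4.27 RPKM in mutant libraries, against 4.38, 4.61 and 4.52 RPKM in Col-0 libraries, and overlapped (log2 fold change -0.12, limma adjusted p = 0.692). Of the 9 tested B cyclins with a cyclin entry in RefSeq, 8 had fitted changes below 0, with a median of -0.09. Over all 19710 tested genes it was below 0 for 10312, with a median of -0.01. In limma 1 of these 9 B cyclins was called, or 11.1%, where 10.6% of all tested genes were called.

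4 of the 15 loci described as B cyclins have another entry in RefSeq. They are APE1, a gene of photosynthetic acclimation, AT5G01800, a saposin B domain gene, and AT1G67250 and AT5G38650, both proteasome maturation factors. The first 3 are the highest of the class, and their ranges overlapped between genotypes. APE1 had 42.2 ± 1.82 RPKM in the mutant and 41.5 ± 2.74 RPKM in Col-0 (SD, n = 3 each, limma adjusted p = 0.914). AT5G01800 had 54.9 ± 6.39 RPKM in the mutant and 57.9 ± 4.92 RPKM in Col-0, and AT1G67250 had 38.7 ± 3.51 RPKM in the mutant and 44.8 ± 7.41 RPKM in Col-0 (limma adjusted p = 0.757 and 0.399). AT5G38650 was listed at 0 in every library, and 737 of its exon bases are shared on the same strand with APE1. Over all classes 8 loci have a RefSeq entry of another kind, a pseudogene entry or none, and leaving them out gave 3 called of 66 tested, or 4.55%.

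The other cyclins hold the transcription-linked and the U groups. CYCU1-1 (AT3G21870, CYCP2;1 in RefSeq) was higher in the mutant, with 24.0, 24.0 and 20.5 RPKM in mutant libraries, against 16.5, 17.4 and 18.9 RPKM in Col-0 libraries. All mutant libraries lay above all Col-0 libraries, and the mutant mean was 1.30 times that of Col-0 (log2 fold change 0.36, SE 0.0994, limma adjusted p = 0.0487). The limma adjusted p was 0.191 and 0.182 without mutant replicates 1 and 2, 0.182 and 0.0816 without Col-0 replicates 1 and 2, 0.0381 and 0.0361 without replicate 3 of either genotype, 0.0666 with no filter, 0.0774 with no mean-variance trend and 0.0925 in limma-voom on recovered reads. A fit with a term for the replicate number also ended the call of CYCU1-1. The fold change stayed above 0 in all 16 other fits.

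CYCU2-2, of the same group, had 2.50, 2.85 and 1.98 RPKM in mutant libraries, against 1.40, 1.51 and 1.04 RPKM in Col-0 libraries. The ranges did not overlap, and the log2 fold change of 0.57 (SE 0.166) missed the threshold (limma adjusted p = 0.0614, with 0.0313 after quantile normalization and 0.0292 with no mean-variance trend). Of the 7 tested U cyclins, 4 had fitted changes above 0 and 3 below. CYCU3-1, the highest of them, had 23.5, 25.5 and 30.2 RPKM in mutant libraries, against 26.2, 28.6 and 24.7 RPKM in Col-0 libraries, and overlapped (limma adjusted p = 0.975).

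Among the 7 tested T, C, H and L cyclins, 0 passed in limma, where 10.6% of all tested genes were called. An unadjusted p under 0.05 was reached by 1 (22.4% of all tested genes), and limma-voom called 0. CYCT1-3, of the group that partners CDKC kinases, had 17.8, 19.1 and 19.7 RPKM in mutant libraries, against 25.9, 19.0 and 25.4 RPKM in Col-0 libraries. Col-0 replicate 2 lay within the mutant range and decided the call: the log2 fold change was -0.29 (limma adjusted p = 0.2) with it and -0.43 (limma adjusted p = 0.0179) without it. CYCT1-4 had 27.9 ± 0.0654 RPKM in the mutant and 26.8 ± 3.36 RPKM in Col-0, and CYCL1-1, linked to splicing, had 29.4 ± 2.77 RPKM in the mutant and 32.4 ± 3.38 RPKM in Col-0 (SD, n = 3 each). Their limma adjusted p-values were 0.797 and 0.528.

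The 13 inhibitors and subunits were all tested and 0 were called in limma, where 10.6% of all tested genes were called. An unadjusted p under 0.05 was reached by 1 (22.4% of all tested genes), and limma-voom called 0. SMR1, a SIAMESE family inhibitor that promotes giant cells of the epidermis, had 32.3, 35.8 and 30.7 RPKM in mutant libraries, against 40.3, 42.3 and 36.6 RPKM in Col-0 libraries. The ranges did not overlap (log2 fold change -0.26, SE 0.0928, limma adjusted p = 0.117), and 333 of its exon bases are shared with a locus on the other strand. The 7 KRP inhibitors had a median change of -0.08, with 2 above 0 and 5 below. CKS1, a docking subunit of the kinase complex, had 62.4 ± 5.56 RPKM in the mutant and 69.7 ± 14.8 RPKM in Col-0, and CKS2 had 37.8 ± 5.69 RPKM in the mutant and 39.9 ± 0.742 RPKM in Col-0 (SD, n = 3 each). Both overlapped, with limma adjusted p-values of 0.648 and 0.734.

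Summed levels per class put these values side by side, with no test. The 11 true B cyclins summed to 50.6 ± 4.73 RPKM in the mutant and 58.1 ± 2.32 RPKM in Col-0, and the highest mutant library, at 55.9 RPKM, lay above the lowest Col-0 library, at 55.4 RPKM. A cyclins summed to 46.3 ± 3.80 RPKM in the mutant and 49.8 ± 1.65 RPKM in Col-0, and D cyclins to 139 ± 2.93 RPKM in the mutant and 151 ± 8.94 RPKM in Col-0. Kinases summed to 228 ± 3.53 RPKM in the mutant and 232 ± 14.2 RPKM in Col-0 (SD, n = 3 each). All of these ranges overlapped, and so did those of the other cyclins and of the inhibitors and subunits. With the 4 other loci counted in, the B class summed to 186 ± 1.42 RPKM in the mutant and 202 ± 12.7 RPKM in Col-0, and those ranges did not overlap.

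**Figure D3:**
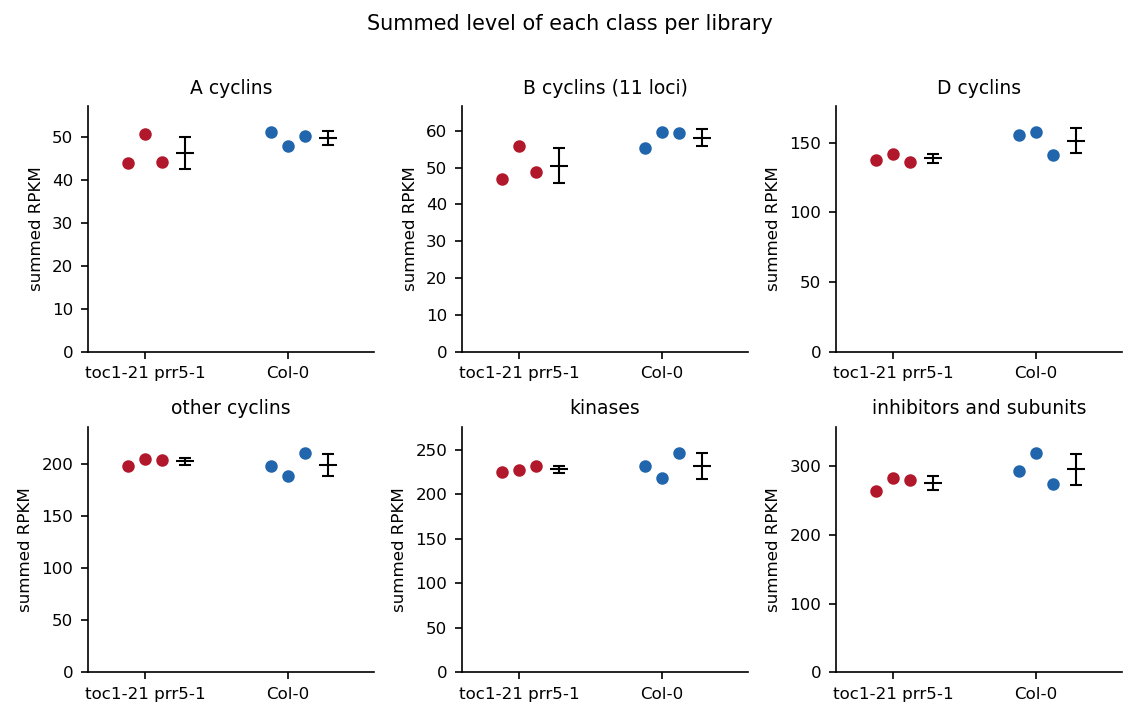
Summed RPKM of each class in each library (vertical axes start at 0), toc1-21 prr5-1 in red and Col-0 in blue, with the mean and SD (n = 3 each) as a black bar. The genotypes overlap in all 6 panels, and the B cyclin panel holds the 11 loci with a cyclin entry in RefSeq.

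The precision of the members that were not called can be given as intervals. Of 48 such genes with a mean of at least 5 RPKM, 46 had a 95% limma interval inside a 1.5-fold change in either direction on the log2(RPKM + 1) scale, and the intervals of CYCB1-2 and SMR3 reached beyond. The median coefficient of variation between libraries, over the 50 genes with such a mean, was 8.19% in the mutant and 10.8% in Col-0. Lower genes were less precise: CYCU4-3 had 4.20, 4.04 and 1.78 RPKM in mutant libraries, against 4.42, 4.48 and 1.19 RPKM in Col-0 libraries, so replicate 3 was low in both genotypes. It shares 1221 exon bases on the other strand with AT5G61660, which had 92.6 to 109 RPKM in the mutant and 96.5 to 109 RPKM in Col-0.

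Of the 87 loci, 18 were not tested and 6 of those were listed at 0 in every library. These 6 are CYCA3-3, CYCT1-1, AT5G38650 and 3 of the 4 loci described as CDKF-4, while the fourth of those, AT5G45430, had 0.0168 RPKM in Col-0 replicate 3 and 0 elsewhere. The meiotic cyclin SDS had 0.871 to 1.29 RPKM in mutant libraries and 0.665 to 0.999 RPKM in Col-0 libraries. A value of 0 in these files need not mean that a gene was silent, since no source used here says how reads shared by several loci were counted. Exons of 24 of the 87 loci overlap a gene on the other strand, and whether reads were counted by strand is not stated either.

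Other genes of the cell-cycle machinery were read from lists of partners. Of 43 tested partner genes outside the 87 loci, 5 were lower and 0 higher in the mutant, or 11.6%. Over all tested genes 10.6% were called, 3.9% higher and 6.65% lower. The 9 RBR1, E2F and DP genes and the 4 MYB3R genes had 0 calls in limma (0 at an unadjusted p under 0.05 and 0 in limma-voom). The background at that unadjusted level in limma is 22.4% of all tested genes. Among the S-phase genes 1 of 11 was lower, among the M-phase genes 1 of 9, among the anaphase-promoting complex activators with WEE1 and CKS 2 of 8, and among the SIAMESE family 1 of 8, which is SMR8. The lists of 8 include loci of the 87, CKS1 and CKS2 in the former and SIM, SMR1, SMR2 and SMR3 in the latter.

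NACK2, a kinesin of cytokinesis also known as TES, had the largest change among the partners. It had 1.75, 1.22 and 1.27 RPKM in mutant libraries, against 4.76, 3.67 and 3.77 RPKM in Col-0 libraries, so the ranges did not overlap (log2 fold change -1.07, SE 0.157, limma adjusted p = 0.00176). It was called without each library in turn, at limma adjusted p-values between 0.00365 and 0.0113.

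CDC20.1, an activator of the anaphase-promoting complex, had 7.17, 8.67 and 9.18 RPKM in mutant libraries, against 13.4, 10.2 and 16.0 RPKM in Col-0 libraries (log2 fold change -0.59, limma adjusted p = 0.0406). CCS52A1, an activator that promotes endoreduplication, had 3.88, 3.64 and 3.46 RPKM in mutant libraries, against 5.43, 5.19 and 5.85 RPKM in Col-0 libraries (log2 fold change -0.48, limma adjusted p = 0.0295). The neighbouring paralog CDC20.2 had 8.68 ± 0.377 RPKM in the mutant and 7.54 ± 1.30 RPKM in Col-0, with overlapping ranges (SD, n = 3 each, limma adjusted p = 0.461). CDC20.2, like CDC6 in the next paragraph, was named after its values were seen, and reads of such close copies may be split between them.

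CDT1A, which licenses replication origins, had 3.80, 4.56 and 4.44 RPKM in mutant libraries, against 6.27, 6.29 and 6.15 RPKM in Col-0 libraries (log2 fold change -0.46, limma adjusted p = 0.0321). CDC6, its partner in licensing, had 1.37, 1.92 and 1.26 RPKM in mutant libraries, against 1.27, 1.55 and 1.46 RPKM in Col-0 libraries, and overlapped (log2 fold change 0.05, limma adjusted p = 0.922). The inhibitor SMR8 had 5.94, 4.37 and 5.94 RPKM in mutant libraries, against 9.50, 8.67 and 7.39 RPKM in Col-0 libraries (log2 fold change -0.57, limma adjusted p = 0.0304). CDT1A, SMR8, CDC20.1 and CCS52A1 had ranges that did not overlap, but their calls needed nearly all libraries. With 1 library left out, the limma adjusted p of CDT1A ran from 0.0541 to 0.143. That of SMR8 ran from 0.0518 to 0.125, except for 0.0199 without Col-0 replicate 3. Without Col-0 replicate 2 CDC20.1 and CCS52A1 had limma adjusted p-values of 0.00811 and 0.0369, and without each of the other 5 libraries from 0.0676 to 0.164 and from 0.07 to 0.1. With no filter on low values the 4 genes had limma adjusted p-values from 0.0511 to 0.0919. CDC20.1 also missed the threshold with no mean-variance trend (limma adjusted p = 0.0619), and SMR8 in limma-voom (adjusted p = 0.073).

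**Figure D4:**
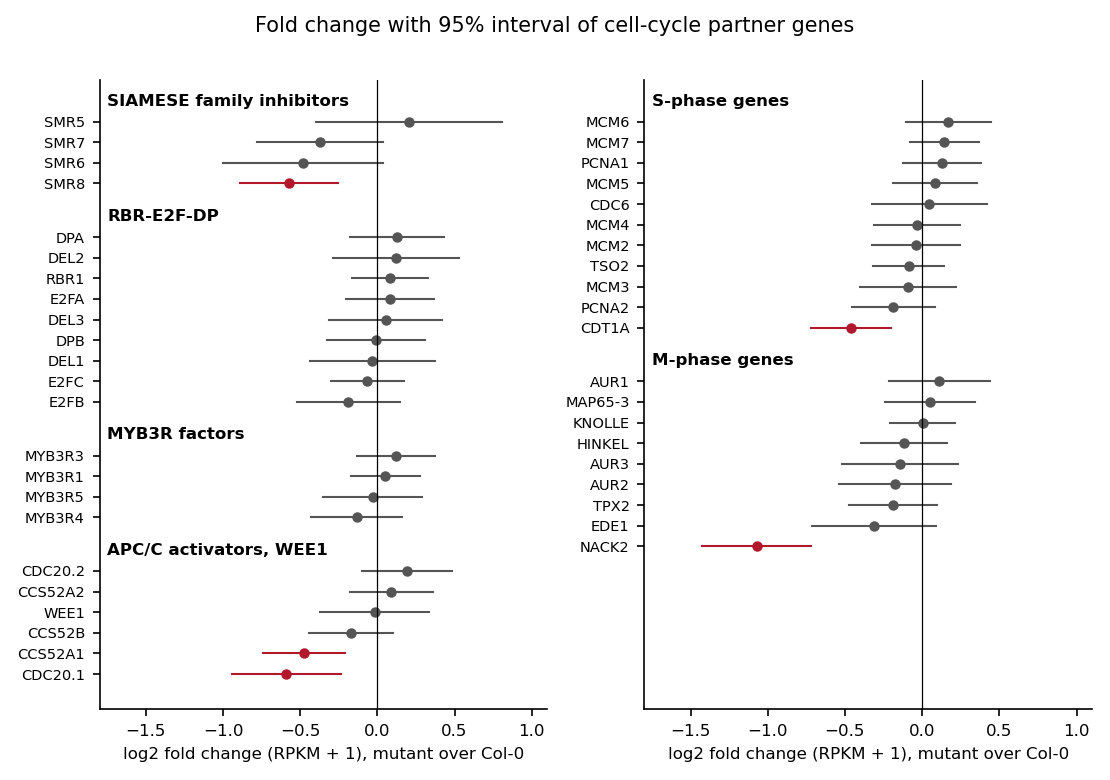
Fitted log2 fold change (mutant over Col-0, log2(RPKM + 1) scale, horizontal axis) with its 95% interval from limma for the 43 tested partner genes that are not among the 87 loci, by list. Red marks an adjusted p under 0.05, and the 5 red genes, NACK2, CDC20.1, SMR8, CCS52A1 and CDT1A, lie below 0.

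Markers of dividing and lineage cells were read beside these results. The background over all tested genes is 10.6% past the limma threshold and 22.4% at the unadjusted 0.05 level in limma. Each marker list held only 5 to 7 tested genes, so a count of 0 or 1 says little about a cell type. Of 8 meristem genes 6 were tested and 1, STM, was higher in the mutant (5.34, 5.75 and 7.46 RPKM in mutant libraries, against 3.86, 4.35 and 3.77 RPKM in Col-0 libraries, limma adjusted p = 0.0451, with 0.0501 to 0.15 without each library in turn, 0.0891 with no filter and 0.0535 in limma-voom). The summed meristem markers were 36.0 to 37.9 RPKM in the mutant and 32.1 to 35.1 RPKM in Col-0, with CLV3 at 0 in all mutant libraries and in 1 Col-0 library, and WUS at most 0.0606 RPKM in the mutant and at most 0.167 RPKM in Col-0. The 7 stomatal lineage genes had 0 calls in limma (1 at an unadjusted p under 0.05, FAMA, which was also the 1 called in limma-voom), and their sum was 38.0 to 40.7 RPKM in the mutant and 43.4 to 50.5 RPKM in Col-0. The 5 root hair genes had 0 calls in limma (0 at an unadjusted p under 0.05, and 0 in limma-voom), and their sum ranged from 41.1 to 57.4 RPKM in the mutant and from 19.0 to 46.3 RPKM in Col-0. Shoot and root markers were thus both present, as the whole-seedling label says. The meristem sums were higher and the stomatal lineage sums lower in every mutant library, and their part in the cell-cycle values was not tested. Single markers went the other way. ANT, 1 of the 6 tested meristem genes, had a log2 fold change of -0.15. WUS and CLV3, too low to be tested, also had lower means in the mutant (0.0332 and 0 RPKM) than in Col-0 (0.126 and 0.134 RPKM). The meristem sum is weighted to its highest genes, ANT, KNAT1 and STM. MUTE and BASL, 2 of the 7 stomatal lineage genes, had 0.25 and 0.12.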

How the data were processed

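Whole seedlings of toc1-21 prr5-1 and Col-0 were compared, with 3 libraries each. Directional libraries were made from DNase-treated Trizol RNA, per the labels' protocols. The deposited values are RPKM per locus, per the file headers. The tools named are TopHat2, TopHat and edgeR, with the TAIR10 build, per the submitters' processing notes. How reads were assigned to loci, by strand or not, and what became of multi-mapped reads is not stated in these sources.

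The 19710 loci that reached 1 RPKM in 3 or more of 6 libraries were tested with limma 3.58.1 (R 4.3.3) on log2(RPKM + 1), with a mean-variance trend and genotype as the only term. Benjamini-Hochberg adjustment ran over these loci with a threshold of 0.05, and the code was tested on simulated data. Members, classes and lists were chosen with earlier results of these data known. Named genes are members past an adjusted p of 0.05 or an unadjusted p of 0.05, the 3 highest of each class, called partner genes, TOC1 and PRR5. CYCB1-1, SDS, CYCU4-3, the CDKD-1 relatives and any other gene named outside this rule were added after their values were seen.

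The RPKM values come from whole reads: a gene length giving whole reads within 0.002 was found for 25139 of 25139 loci above 0, and the recovered reads, 99.51% to 99.56% of each library's depth, entered limma-voom as an alternative. Within each genotype, library pairs differed beyond sampling noise (chi-square per degree of freedom 6.17 to 22.37). Positions, products and sequences were matched by locus in RefSeq's TAIR10.1 annotation, where 85 of 87 members have an entry. The files carry no coordinates. Of the 50-base windows of each member's transcript, those found elsewhere in the genome were counted. Alternatives were other pseudocounts, filters, scalings, no trend, limma-voom, a replicate block and leaving out each library. Fits without a library kept the filter on all 6 libraries.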

Additional observations from a re-analysis of the deposited data

How the results depend on the processing

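The members called numbered 3, against 1 with no filter on low values, 5 after quantile normalization, 2 with the replicate block, which ended the call of CYCU1-1 (limma adjusted p = 0.0775), and 1 to 2 with 1 library left out. CDKD-1 was called in all 15 other fits that tested it, CYCB1-4 in 10 of 16 and CYCU1-1 in 8 of 16. The 5 partner calls fell to 1 with no filter and to 3 with the replicate block (without CCS52A1 at 0.0589 and CDT1A at 0.0592), and ranged from 1 to 3 with 1 library left out. Over all genes 2080 were called, with 1340 to 2250 when 1 library was left out and 2114 with the block, in which AT1G73700 and STM also missed the threshold (0.0636 and 0.0564). Correlations of same-numbered deviations were -0.03, 0.15 and 0.04, and those of differently numbered ones ran from -0.15 to 0.11. These values cannot settle whether the replicate numbers pair the libraries. Of 96 class medians, 91 moved by less than the spread between libraries. With 1 library left out, the medians ranged from -0.1788 to -0.0534 for B cyclins and from -0.1502 to -0.0515 for D cyclins (both lowest without mutant replicate 2). They ranged from -0.0622 to 0.0119 for kinases and from 0.0321 to 0.1231 for other cyclins (both highest without Col-0 replicate 3), and the kinase median was -0.0011 after quantile normalization. The cause of these shifts was not tested. Of 27 named members, 18 kept the sign of their fold change in every fit, and the 9 others were not called. A filter on the mean of all libraries, chosen after seeing the data, gave the same 3 members called. Depth limits genes near 1 RPKM, where 1 kb rests on 14.6 to 26.8 reads.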
